A study of Homo sapiens with 24 samples.

Results

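The genes described here are 45 genes of the transition from G1 into S phase and of DNA replication, taken by name from the 61533 genes of a 4sU-seq count table. They comprise 5 E2F transcription factors, 4 G1 cyclins and CDK activators, 14 genes of origin licensing and the replicative helicase, 4 genes of nucleotide synthesis, 7 polymerase and primase subunits, 7 genes of the sliding clamp, its loader and Okazaki fragment joining, and 4 genes of chromatin assembly and histone mRNA. The rule names the genes and uses no measured value. All 45 genes passed the filter on low counts in both fits described below, with at least 147 reads of each gene in every library.

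The cells were U2OS, a human osteosarcoma line, carrying the glucocorticoid receptor (GR) with a HaloTag at its end, a tag to which fluorescent dyes attach. 4sU-seq measures newly made RNA: cells take up 4-thiouridine and build it into the RNA they are making, which can then be purified and sequenced. The wt line carried unmutated GR. The SoF (separation-of-function) line carried GR with a hinge region lysine changed to alanine, which weakens binding to RNA more than to DNA, and the Ctrl line GR with an arginine changed to alanine, chosen to match the weaker DNA binding of SoF. In each line the construct, under a CMV promoter, was integrated with the PiggyBac transposon into cells with little GR of their own, and cells were selected with puromycin and sorted on the HaloTag dye, with 1 sorted pool per line picked for similar nuclear GR signal. Effects of a construct and of its pool of cells therefore cannot be told apart. All cells were kept in medium with 10% charcoal-stripped serum. Dexamethasone, a synthetic glucocorticoid, was given at 100 nM for 1, 2 or 3 h and ethanol at 0.01% to the 0 h dishes, and every dish received 200 µM 4-thiouridine for the last 1 h. How long the 0 h dishes stood in ethanol is not given in the sources used here. There were 12 groups (3 lines by 4 times) of 2 libraries, and no label says whether these came from separate cultures. The p-values therefore measure the spread between libraries, which may be technical. The paper states that labelled RNA was tagged with biotin and pulled down in pairs of sample replicates. If the 2 libraries of a group were such a pair, differences between pulldowns fall between groups and are not in that spread.

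As background, most E2F proteins bind DNA with a DP partner, and the activators among them switch on the genes for entry into S phase. The retinoblastoma protein holds the activator E2Fs in check until cyclin D and cyclin E kinases phosphorylate it. ORC, CDC6 and CDT1 load the MCM helicase onto origins in G1. CDC45 and the GINS complex then turn it into the active helicase, and PCNA, set on DNA by the RFC clamp loader, holds the polymerases at the fork. E2F7 and E2F8, which need no DP partner, are repressors of the same targets, made later in the cycle. Glucocorticoids are known to slow the growth of many cell types, and bulk RNA does not separate a smaller share of cells in S phase from less RNA made per cell.

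Total counts ranged from 8106036 to 15820806 per library. Of the markers used to check the cell type, COL1A1, SPARC, RUNX2, VIM and FN1 had medians of 106 to 1235 CPM (counts scaled to the library size) over the 24 libraries, while COL1A2 had a median of 0.209. The epithelial and blood markers EPCAM, CDH1, KRT19, PTPRC, CD3E and HBB had medians of 0 to 4.58 CPM.

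The 2 ethanol libraries of each line differed in these genes before any comparison of times was made. In wt, 38 of the 45 genes were higher in replicate 1 than in replicate 2, with a median log2 ratio of 0.32. In SoF 35 of 45 were higher in replicate 1 (median 0.19) and in Ctrl 38 of 45 (median 0.26). Over all genes, 51.1% to 51.7% were higher in replicate 1 in these 3 pairs. CDT1, the licensing factor, was at 137 and 84.1 CPM in the 2 wt libraries, at 77.99 and 50.5 in SoF and at 101 and 56.1 in Ctrl. TK1, a thymidine kinase of S phase, was at 93.6 and 67.9 CPM in wt, 72.8 and 45.01 in SoF and 70.2 and 47.8 in Ctrl. Pairs at the other times were also counted for genes higher in replicate 1. There wt had 34 of 45 at 1 h (median 0.11), 42 at 2 h (0.31) and 33 at 3 h (0.13). SoF had 16 at 1 h (-0.029), 38 at 2 h (0.095) and 15 at 3 h (-0.075). Ctrl had 36 at 1 h (0.15), 27 at 2 h (0.041) and 34 at 3 h (0.11). Over all genes, 46.9% to 51.7% were higher in replicate 1 in these pairs. For the genes called at 3 h against 0 h, values without a set of ethanol libraries are therefore given. For some of them the step from 1 h to 3 h, which uses no ethanol library, is given as well.

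**Figure D1:**
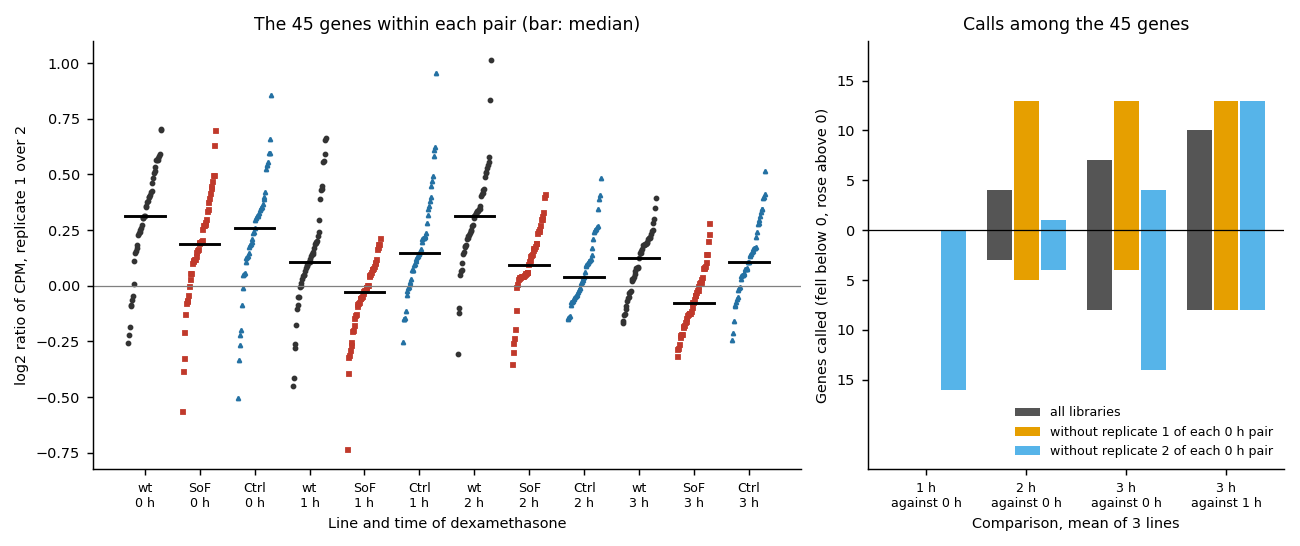
Left, the log2 ratio of CPM in replicate 1 over replicate 2 for each of the 45 genes, in each line and time (points, sorted; bars, medians). The 3 medians at 0 h lie between 0.19 and 0.32. Right, how many of the 45 genes were called (adjusted p under 0.05; bars upward for higher, downward for lower) for the mean of 3 lines with all libraries, without the 3 replicate 1 libraries at 0 h and without the 3 replicate 2 libraries at 0 h. At 1 h the count is 0, 0 and 16, and for 3 h against 1 h it is 18, 21 and 21.

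Levels between genes were compared per kilobase of exon (RPKM) in the 6 ethanol libraries. The length merged all annotated exons of a gene, so the order of genes depends on the annotation. PCNA, the sliding clamp, was the highest at 109 ± 27.6 RPKM (SD, n = 6), and TYMS, which makes thymidylate, followed at 73.7 ± 8.41. FEN1, the flap nuclease of Okazaki fragments, was at 62.3 ± 11.5 and MCM7 at 57.7 ± 13.3. These spreads overlap for each pair of neighbours in that order. The lowest in RPKM was POLA1, the catalytic subunit of polymerase alpha, at 3.28 ± 0.533, over 15547 bases of merged exons. In CPM its mean was 51.0, and the lowest mean was that of CHAF1B at 19.9. The subunits of the MCM helicase, which is built from 1 copy of each, were unequal in RPKM: MCM7 and MCM3 (49.5 ± 6.40 RPKM) stood above MCM5 (26.6 ± 4.87), MCM2 (24.9 ± 6.22), MCM4 (17.7 ± 2.75) and MCM6 (15.5 ± 1.91). That order rests on the merged lengths, such as 3645 bases for MCM3, 7268 for MCM5 and 9852 for MCM4. In CPM, not divided by length, the means were 286 (MCM7), 193 (MCM5), 180 (MCM3), 174 (MCM4), 118 (MCM2) and 64.1 (MCM6). Among the E2F genes E2F7 was highest at 32.3 ± 3.77 RPKM, and E2F3, E2F1, E2F2 and E2F8 lay between 10.9 and 14.5 RPKM, with spreads that overlap between neighbours. About 37.0% of the exon bases of CCNE2 and 39.9% of those of TYMS lie opposite another gene (INTS8 and ENOSF1), and that the counting used strand is stated by the title of the table alone, so both levels are uncertain.

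**Figure D2:**
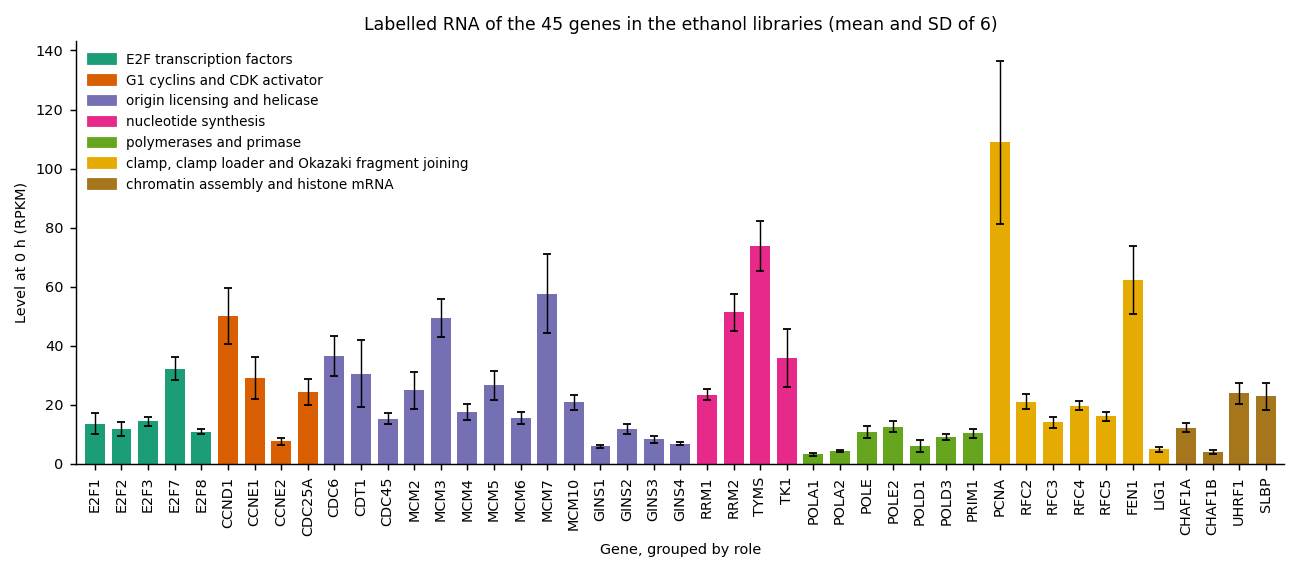
Level of labelled RNA of the 45 genes at 0 h, in RPKM on a linear axis from 0, as the mean (bars) and SD (error bars) of the 6 ethanol libraries, grouped by role (colours). PCNA stands highest at 109 ± 27.6 RPKM and POLA1 lowest at 3.28 ± 0.533, with all annotated exons of a gene merged for its length.

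Promoter sequence is shown for 5 of the genes whose time courses are given below: 3 with and 2 without an E2F motif, so that the motif can be seen in its place. The windows are from RefSeq (GRCh38.p14), which gave at least 1 window of 300 bases (250 before to 50 after the start) for 38 of the 45 genes. UHRF1 had 3 windows, and a window with the most E2F matches is shown. CCND1, CCNE2, E2F8, GINS4, MCM4, MCM5 and POLD3 were not matched. Each line below gives the 150 bases that end just before the start, 5′ to 3′ on the strand of the gene, with E2F motifs in capitals. The motif was searched as TTTCCCGC, TTTCGCGC, TTTGCCGC or TTTGGCGC on both strands, and matches that overlap each other were counted separately. E2F1 is from chr20:33686386-33686535 (minus strand), with matches beginning at -33 and -20 from the start. UHRF1 is from chr19:4909351-4909500 (plus strand, -14), E2F2 from chr1:23531234-23531383 (minus strand, -42), CCNE1 from chr19:29811841-29811990 (plus strand, none) and RFC4 from chr3:186806483-186806632 (minus strand, none).
E2F1: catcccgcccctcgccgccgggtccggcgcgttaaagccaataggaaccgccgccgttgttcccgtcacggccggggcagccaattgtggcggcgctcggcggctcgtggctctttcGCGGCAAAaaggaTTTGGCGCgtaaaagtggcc
UHRF1: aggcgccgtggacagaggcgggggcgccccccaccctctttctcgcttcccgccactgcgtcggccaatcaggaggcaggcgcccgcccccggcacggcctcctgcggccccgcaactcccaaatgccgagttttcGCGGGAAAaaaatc
E2F2: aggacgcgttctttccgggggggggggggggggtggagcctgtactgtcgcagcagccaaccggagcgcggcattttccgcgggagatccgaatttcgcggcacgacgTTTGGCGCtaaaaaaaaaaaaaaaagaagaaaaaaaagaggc
CCNE1: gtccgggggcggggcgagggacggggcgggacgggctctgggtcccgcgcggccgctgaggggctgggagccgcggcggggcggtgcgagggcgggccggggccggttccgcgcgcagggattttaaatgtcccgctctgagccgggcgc
RFC4: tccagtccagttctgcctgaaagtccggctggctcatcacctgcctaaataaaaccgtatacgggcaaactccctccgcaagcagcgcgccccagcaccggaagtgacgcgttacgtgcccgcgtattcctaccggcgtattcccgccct

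An E2F motif was in at least 1 window of 22 of the 38 genes (57.9%), against 3.99% of the 27305 genes with a window. Counted by window, it was in 23 of 49 (46.9%), against 3.31% of all 35116 windows. By role it was in 9 of 11 licensing and helicase genes with a window, in 4 of 6 polymerase genes, in 3 of 4 E2F genes and in 1 of 4 nucleotide synthesis genes. Of the genes with a window, it was in 4 of 5 called as higher at 3 h, in 4 of 6 called as lower and in 14 of 27 not called. CCAAT, the box bound by NF-Y, was in 22 of the 38 genes (57.9%) against 39.7% of all genes. The full glucocorticoid response element, searched as AGAACA followed after any 3 bases by its inverted repeat, was in none of the 38 and in 1 of the 27305. A single AGAACA, on either strand, was in 3 of 38 (7.89%) against 17.5% of all. A match is a description of the letters in this window only.

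The first question was which of these genes changed over 3 h of dexamethasone. For the mean of the 3 lines (6 libraries per time), 7 of the 45 genes rose at 3 h against 0 h and 8 fell, tested with edgeR (quasi-likelihood, Benjamini-Hochberg adjustment over all genes). This is 33.3% of the 45, and 40.3% of all 23651 genes tested were called in that comparison (20.9% higher and 19.3% lower). The median log2 fold change of the 45 was -0.074 (all genes, -0.035), and the median absolute change was 0.18 against 0.33 over all genes. Against 1 h, 10 rose and 8 fell, which is 40.0% of the 45 beside 50.6% of all genes (25% higher and 25.6% lower). The 2 comparisons share the 3 h libraries. The 3 h libraries of E2F2, E2F8 and RFC4 all lay below their 1 h libraries, as in 10.7% of all genes. With each library left out in turn, the count against 0 h stayed between 12 and 16 and that against 1 h between 14 and 20. Without the 3 replicate 1 libraries at 0 h the split against 0 h was 13 higher and 4 lower, and without the 3 replicate 2 libraries it was 4 higher and 14 lower. CCND1, CCNE1, CCNE2, E2F3, E2F8 and RFC4 were called against 0 h in each of these fits.

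**Figure D3:**
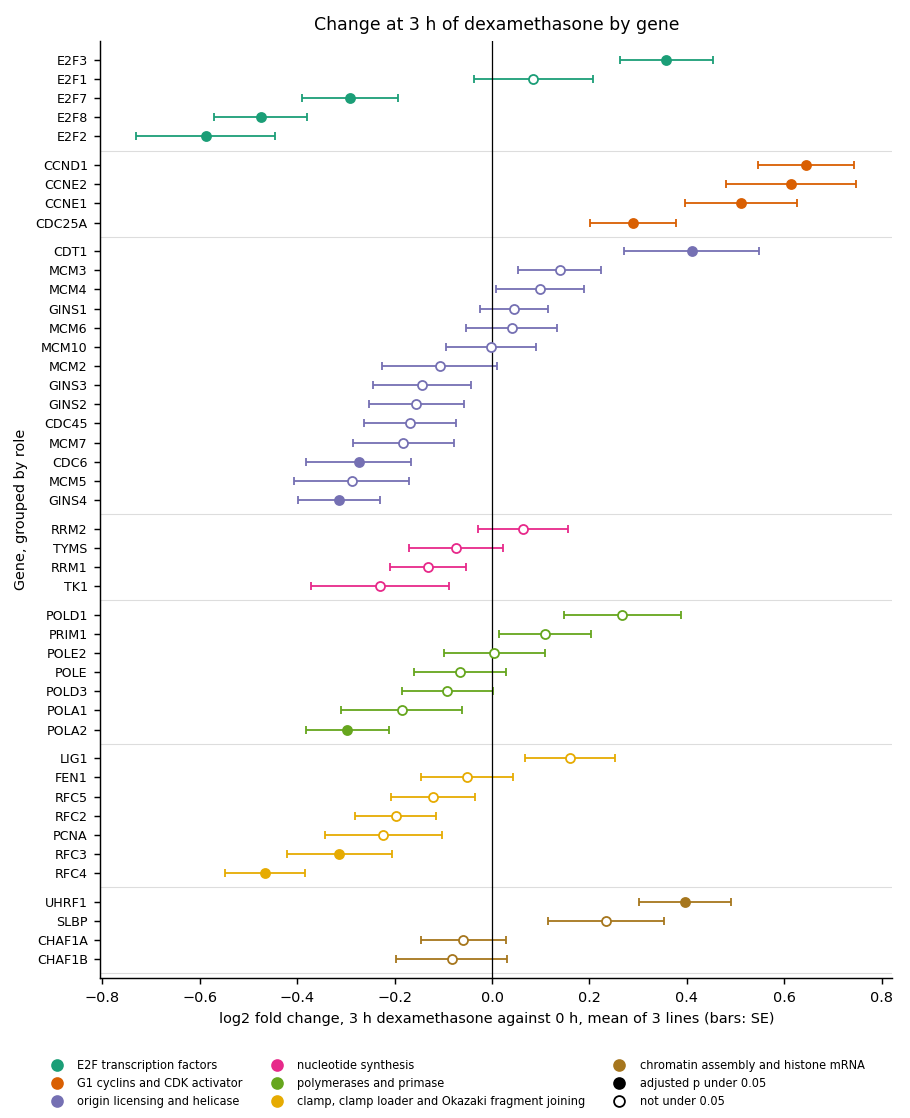
The log2 fold change at 3 h against 0 h for the mean of 3 lines (points) with its SE (bars), by gene and role. Filled points have an adjusted p under 0.05 in edgeR's quasi-likelihood test. All 4 G1 cyclins and CDK activators lie to the right, between 0.29 and 0.64, and E2F2, E2F7 and E2F8 lie to the left, between -0.59 and -0.29.

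**Figure D4:**
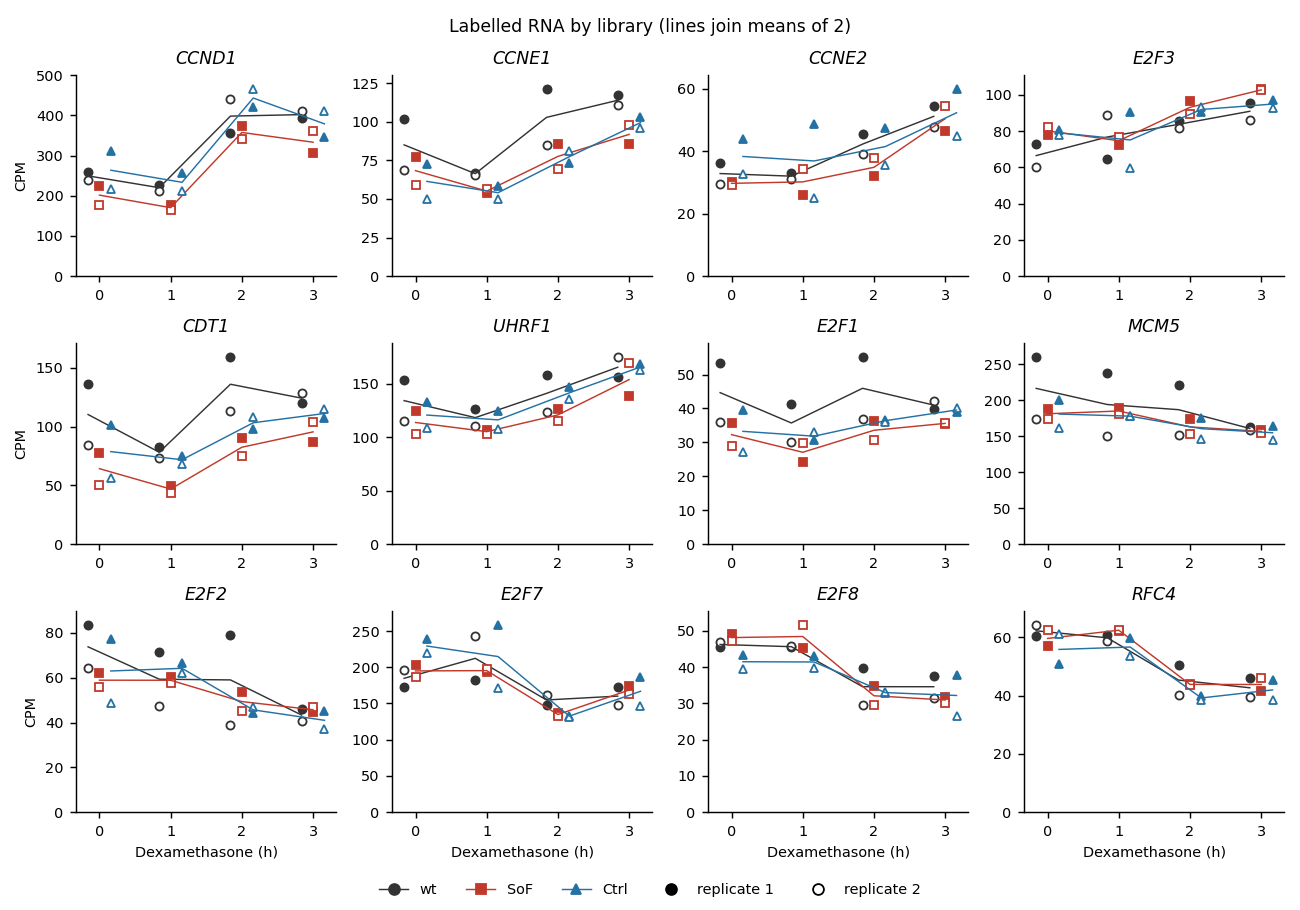
Labelled RNA (CPM, linear axes from 0) of 12 genes in each library at 0, 1, 2 and 3 h of dexamethasone, for wt, SoF and Ctrl. Filled symbols are replicate 1, open symbols replicate 2, and lines join the means of 2. The means of CCND1 step up between 1 and 2 h in each line, and those of RFC4 and E2F8 step down.

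All 4 G1 cyclins and CDK activators rose at 3 h against 0 h, where 20.9% of all genes were called as higher. CCND1 (cyclin D1, hg38 chr11:69641156-69654474) is the cyclin that couples growth signals to CDK4 and CDK6. Its level ran from 178 to 311 CPM (median 232) in the 6 libraries at 0 h, from 164 to 256 CPM (median 211) at 1 h, from 341 to 464 CPM (median 398) at 2 h and from 306 to 411 CPM (median 377) at 3 h. The 2 h libraries all lay above the 0 h libraries, as in 5.62% of all genes, and at 3 h the ranges overlapped through replicate 1 of Ctrl at 0 h (311 CPM). At 3 h its log2 fold change was 0.64 (SE 0.10, adjusted p = 2.10e-05) against 0 h and 0.85 (SE 0.10, adjusted p = 5.35e-07) against 1 h. The first of these was 0.82 without the replicate 1 libraries at 0 h and 0.50 without the replicate 2 libraries, called in both. Of its exon bases 10.4% lie opposite LTO1.

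CCNE1 and CCNE2 encode cyclin E, the partner of CDK2 at entry into S phase. CCNE1 ran from 49.9 to 101 CPM (median 70.7) at 0 h, from 49.9 to 67.1 CPM (median 57.2) at 1 h, from 69.6 to 121 CPM (median 83.02) at 2 h and from 85.7 to 117 CPM (median 100.5) at 3 h. The 3 h libraries all lay above the 1 h libraries, as in 14.2% of all genes. Replicate 1 of wt at 0 h (101 CPM) lay among the 3 h libraries. The log2 fold change at 3 h came to 0.51 (SE 0.11, adjusted p = 0.00114) against 0 h and 0.80 (SE 0.12, adjusted p = 7.71e-06) against 1 h. Without the replicate 1 libraries at 0 h it was 0.79, and without the replicate 2 libraries 0.29. CCNE2 (chr8:94879770-94896678) ran from 29.2 to 43.9 CPM (median 31.5) at 0 h, from 25.1 to 48.6 CPM (median 31.99) at 1 h, from 31.9 to 47.3 CPM (median 38.3) at 2 h and from 44.8 to 59.7 CPM (median 51.1) at 3 h. Every 3 h library lay above every 0 h library, which held for 9.89% of all genes. At 3 h the log2 fold change was 0.61 (SE 0.13, adjusted p = 0.00092) against 0 h (0.76 and 0.50 without the replicate 1 or the replicate 2 libraries at 0 h), with the reservation given above on INTS8. CDC25A, the phosphatase that activates CDK2, rose by 0.29 (SE 0.089, adjusted p = 0.0125) against 0 h and by 0.46 (SE 0.089, adjusted p = 0.000232) against 1 h on the log2 scale. The first of these was 0.45 without the replicate 1 libraries at 0 h, and 0.15 and not called without the replicate 2 libraries.

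Among the E2F genes 1 rose and 3 fell at 3 h, beside 20.9% of all genes called as higher and 19.3% as lower. E2F1 (chr20:33675477-33686385), an activator, ran from 27.1 to 53.3 CPM (median 35.8) at 0 h, from 24.3 to 41.2 CPM (median 30.4) at 1 h, from 30.8 to 55.04 CPM (median 36.6) at 2 h and from 35.5 to 42.3 CPM (median 39.3) at 3 h. Its log2 fold change at 3 h was 0.084 (SE 0.12, adjusted p = 0.611) against 0 h, and the value was 0.35 without the replicate 1 libraries at 0 h (called) and -0.12 without the replicate 2 libraries (not called), so its direction against 0 h changed with the ethanol libraries used. Against 1 h E2F1 rose by 0.30 (SE 0.12, adjusted p = 0.0453), a call lost in 9 of the 24 fits that left out 1 library (0.24 to 0.39). E2F3, also an activator, ran from 60.2 to 82.4 CPM (median 77.7) at 0 h and from 86.2 to 103 CPM (median 96.5) at 3 h. Its 3 h libraries all lay above its 0 h libraries, as in 9.89% of all genes. E2F3 rose by 0.36 (SE 0.10, adjusted p = 0.00474), or by 0.40 and 0.33 without the replicate 1 or the replicate 2 ethanol libraries.

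E2F2, the third of the activators, ran from 48.9 to 83.3 CPM (median 63.2) at 0 h, from 47.4 to 71.3 CPM (median 61.1) at 1 h, from 39.1 to 78.9 CPM (median 45.9) at 2 h and from 37.01 to 46.9 CPM (median 44.7) at 3 h. All 3 h libraries lay below all 0 h libraries, as in 6.76% of all genes. The log2 fold change was -0.59 (SE 0.14, adjusted p = 0.00227) against 0 h and -0.49 (SE 0.14, adjusted p = 0.00708) against 1 h, and -0.36 (not called) against the replicate 2 ethanol libraries alone and -0.76 against the replicate 1 ethanol libraries alone. E2F8, a repressor, ran from 39.6 to 49.02 CPM (median 46.2) at 0 h and from 26.5 to 37.8 CPM (median 31.7) at 3 h. Its 3 h libraries also all lay below its 0 h libraries (6.76% of all genes). The log2 fold change of E2F8 was -0.48 (SE 0.10, adjusted p = 0.00043), with -0.45 and -0.49 when 1 or the other set of ethanol libraries was left out. E2F7, the other repressor, ran from 173 to 239.7 CPM (median 200.0) at 0 h, from 132 to 162 CPM (median 135) at 2 h and from 147 to 187 CPM (median 167) at 3 h. All its 2 h libraries lay below all its 0 h libraries, as in 2.95% of all genes. Its log2 fold change was -0.53 (SE 0.10, adjusted p = 0.000361) at 2 h and -0.29 (SE 0.10, adjusted p = 0.0216) at 3 h. The 3 h call of E2F7 was lost without wt replicate 2 at 0 h (-0.25) or 3 h (-0.25), SoF replicate 1 at 0 h (-0.26) or replicate 2 at 3 h (-0.27), and Ctrl replicate 1 at 0 h (-0.26) or replicate 2 at 3 h (-0.23). It was also lost without either set of ethanol libraries, at -0.27 without replicate 1 and -0.30 without replicate 2.

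Of the 14 genes of origin licensing and the helicase, 1 rose, 2 fell and 11 did not pass the test at 3 h against 0 h. The share called was 21.4%, below the 40.3% of all genes. CDT1, which brings MCM rings to origins, ran from 50.5 to 137 CPM (median 81.04) at 0 h, from 43.9 to 82.9 CPM (median 71.1) at 1 h, from 74.9 to 159 CPM (median 103) at 2 h and from 86.8 to 129 CPM (median 111) at 3 h. The 3 h libraries all lay above the 1 h libraries, as in 14.2% of all genes, while the 0 h libraries spanned both. CDT1 rose by 0.41 (SE 0.14, adjusted p = 0.0225) against 0 h and by 0.77 (SE 0.14, adjusted p = 0.000104) against 1 h. The first call was lost without replicate 2 at 0 h of wt (0.32), SoF (0.32) or Ctrl (0.29), or without SoF replicate 2 at 3 h (0.37), and the value was 0.10 without all 3 replicate 2 libraries at 0 h and 0.83 without all 3 of replicate 1.

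MCM5 (chr22:35400134-35425431), a subunit of the MCM ring, ran from 161 to 259.7 CPM (median 181) at 0 h, from 150.3 to 238 CPM (median 179) at 1 h, from 146 to 222 CPM (median 163) at 2 h and from 146 to 164 CPM (median 159) at 3 h. The groups overlapped, with a narrower range at 3 h than at 0 h. Its log2 fold change at 3 h was -0.29 (SE 0.12, adjusted p = 0.0543), above the threshold of 0.05. It was called without replicate 2 at 0 h of wt (-0.37) or Ctrl (-0.34), or without either wt library at 1 h or 2 h (-0.28 in each), and it was -0.10 without the 3 replicate 1 libraries at 0 h. None of MCM2 to MCM7 was called at 3 h against 0 h, with values from -0.29 for MCM5 to 0.14 for MCM3. MCM5 passed the threshold without a filter on low counts (-0.28), with the size factors of DESeq2 (-0.30) and in DESeq2 itself (-0.30).

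CDC6, the ATPase that loads MCM with ORC, fell against 0 h but was not called against 1 h. It ran from 159 to 250.4 CPM (median 184) at 0 h, from 158 to 197 CPM (median 179) at 1 h and from 144 to 194 CPM (median 148) at 3 h, with overlap. Against 0 h its log2 fold change was -0.27 (SE 0.11, adjusted p = 0.0472). That call was kept in 6 of the 24 fits that left out 1 library, those without wt replicate 2 at 0 h or replicate 1 at 3 h, SoF replicate 2 at 0 h, or Ctrl replicate 2 at 0 h or 1 h or replicate 1 at 3 h, and the other 18 lost it (-0.35 to -0.17 over all 24). Without the 3 replicate 1 libraries at 0 h the value was -0.036 and not called, and without the 3 replicate 2 libraries it was -0.46. GINS4, a subunit of GINS, fell as well. It ran from 34.01 to 40.8 CPM (median 37.9) at 0 h and from 25.1 to 35.7 CPM (median 30.003) at 3 h, with a log2 fold change of -0.31 (SE 0.084, adjusted p = 0.00488), which was -0.23 and not called without the replicate 1 libraries at 0 h and -0.38 without those of replicate 2. A lncRNA lies opposite part of the exons of GINS4, and another opposite 23.6% of the exon bases of MCM2. The 3 other GINS genes, CDC45 and MCM10 had log2 fold changes between -0.17 and 0.045, and none passed the test.

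None of the 4 genes of nucleotide synthesis was called at 3 h, while 40.3% of all genes were. RRM2, the small subunit of ribonucleotide reductase, ran from 401 to 574 CPM (median 458) at 0 h and from 433 to 571 CPM (median 487) at 3 h, with a log2 fold change of 0.063 (SE 0.092). RRM1, TYMS and TK1 had log2 fold changes of -0.13, -0.074 and -0.23. The smallest adjusted p of the 4 by edgeR's test was 0.189.

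Of the 7 polymerase and primase genes 1 was called against 0 h, as lower, while 40.3% of all genes were called. POLA2, the regulatory subunit of polymerase alpha, ran from 46.6 to 56.4 CPM (median 50.4) at 0 h and from 36.6 to 46.9 CPM (median 41.9) at 3 h. It fell with a log2 fold change of -0.30 (SE 0.085, adjusted p = 0.00778), and -0.22 (not called) without the replicate 1 libraries at 0 h or -0.36 without those of replicate 2. POLA2 shares 16.8% of its exon bases with another gene of the same strand. POLD1, the catalytic subunit of polymerase delta, was at 0.27 (SE 0.12) against 0 h, not called, and rose by 0.50 (SE 0.12, adjusted p = 0.00178) against 1 h. POLE, the catalytic subunit of polymerase epsilon, ran from 113 to 184 CPM (median 126) at 0 h, from 139 to 191 CPM (median 154) at 2 h and from 117 to 137 CPM (median 126) at 3 h. The log2 fold change of POLE was 0.26 (SE 0.095, adjusted p = 0.046) at 2 h and -0.066 (SE 0.10) at 3 h. POLA1 fell against 1 h, with a log2 fold change of -0.32 (SE 0.12, adjusted p = 0.035), a call kept in 12 of the 24 fits without 1 library, with SoF replicate 2 at 1 h (75.5 CPM) the highest of all 24 libraries.

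Both genes called against 0 h among the 7 of the clamp and its loader fell, and 40.3% of all genes were called. RFC4, a subunit of the clamp loader (chr3:186789880-186807058), ran from 50.7 to 64.1 CPM (median 60.7) at 0 h, from 53.7 to 62.6 CPM (median 60.2) at 1 h, from 38.4 to 50.4 CPM (median 42.01) at 2 h and from 38.4 to 45.9 CPM (median 43.6) at 3 h. The libraries at 2 h and at 3 h all lay below those at 0 h, as in 2.95% and 6.76% of all genes. Its log2 fold change was -0.47 (SE 0.082, adjusted p = 0.000186) at 2 h and -0.47 (SE 0.082, adjusted p = 0.000107) at 3 h, and -0.48 (SE 0.083, adjusted p = 6.01e-05) against 1 h. The 3 h value against 0 h was -0.54 and -0.38, called in both, with the replicate 1 or the replicate 2 ethanol libraries left out. RFC3, another subunit, ran from 34.9 to 49.5 CPM (median 37.8) at 0 h and from 29.7 to 37.2 CPM (median 31.98) at 3 h. It fell in both comparisons, with log2 fold changes of -0.31 (SE 0.11, adjusted p = 0.0235) against 0 h and -0.47 (SE 0.11, adjusted p = 0.00102) against 1 h. Its call against 0 h was lost without wt replicate 2 at 3 h (-0.27), SoF replicate 2 at 0 h (-0.27) or replicate 1 at 3 h (-0.29), or Ctrl replicate 2 at 0 h (-0.22) or 3 h (-0.28). It was -0.18 and not called without all 3 replicate 2 libraries at 0 h, and -0.42 without all 3 of replicate 1. RFC2 and RFC5 had log2 fold changes of -0.20 and -0.12 and PCNA of -0.22 (SE 0.12), none of them called.

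UHRF1, which brings the maintenance methyltransferase to replicated DNA, was the 1 gene of 4 called against 0 h in the last role group (40.3% of all genes were called). It ran from 103 to 154 CPM (median 119.8) at 0 h, from 104 to 126 CPM (median 109) at 1 h, from 115 to 158 CPM (median 131) at 2 h and from 139 to 175 CPM (median 166) at 3 h. The 3 h libraries all lay above the 1 h libraries, as in 14.2% of all genes, and overlapped the 0 h libraries through wt replicate 1 (154 CPM). UHRF1 rose by 0.40 (SE 0.095, adjusted p = 0.00196) against 0 h, which was 0.25 and not called without the replicate 2 libraries at 0 h and 0.58 without those of replicate 1. SLBP, which binds the stem-loop of histone mRNA, was at 0.23 (SE 0.12) against 0 h, not called, and rose by 0.44 (SE 0.12, adjusted p = 0.00452) against 1 h. CHAF1A and CHAF1B, of the CAF-1 histone chaperone, had log2 fold changes of -0.059 and -0.083.

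The second question was when the changes appeared. At 1 h none of the 45 genes was called in the mean of 3 lines or in any line by edgeR's quasi-likelihood test or by DESeq2. At an unadjusted p under 0.05 there were 3 in the mean, 1 in wt, 1 in SoF and 0 in Ctrl. Over all genes, 1.28% were called in the mean (0.731% higher, 0.55% lower), while the shares by line were 0.156% (wt), 0.165% (SoF) and 0.0465% (Ctrl). The log2 fold change at 1 h was below 0 for 36 of the 45 genes in the mean (median -0.077), and the line medians were -0.16 (wt), -0.046 (SoF) and -0.031 (Ctrl). In each of the 3 lines 3 genes were higher and 21 lower at 1 h, beside 21.2% and 21.5% of all genes. CDT1 had the lowest value at -0.36 (SE 0.14). Without Ctrl replicate 2 at 0 h 1 gene was called as lower at 1 h, and without the 3 replicate 2 libraries at 0 h 16 were called as lower.

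At 2 h in the mean of 3 lines, CCND1, CDC25A, E2F3 and POLE rose and E2F7, E2F8 and RFC4 fell. These 7 genes are 15.6% of the 45, beside 28.8% of all genes called at 2 h (16.2% higher, 12.6% lower). With the size factors of DESeq2 in place of TMM the split was 2 higher and 4 lower. The count of 7 became 11 on dropping wt replicate 1 of 0 h. It became 4 on dropping replicate 2 of 0 h in wt or SoF, or SoF replicate 1 or Ctrl replicate 2 of 2 h. Without the 0 h libraries of replicate 1 in all lines it was 18 (13 higher, 5 lower). CCND1 was the gene with the smallest p at 2 h, and rose by 0.75 (SE 0.10, adjusted p = 7.03e-06). CCNE1 and CCNE2, called at 3 h, stood at 0.26 (SE 0.11) and 0.23 (SE 0.14) at 2 h.

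The third question was whether the lines differed in their response. At 3 h, 3 of the 45 genes were called in wt (10.7% of all genes were), 4 in SoF (19.3%) and 3 in Ctrl (14.2%). CCND1 rose in each line. It went from 259 and 239.7 to 393 and 411 CPM in wt, from 225 and 178 to 306 and 360.5 in SoF and from 311 and 216 to 347 and 411 in Ctrl. Its log2 fold changes were 0.69 (SE 0.17, adjusted p = 0.011), 0.72 (SE 0.17, adjusted p = 0.00487) and 0.52 (SE 0.17, adjusted p = 0.0436). RFC4 fell in wt, from 60.4 and 64.1 to 45.9 and 39.5 CPM (log2 fold change -0.54, SE 0.14, adjusted p = 0.0148), and in SoF, from 56.9 and 62.4 to 41.7 and 45.9 CPM (log2 fold change -0.44, SE 0.14, adjusted p = 0.0318). In Ctrl RFC4 went from 50.7 and 60.999 to 45.5 and 38.4 CPM, with -0.41 (SE 0.14, adjusted p = 0.0596), which was not called.

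The remaining calls at 3 h were made in 1 line each. E2F2 fell in wt, from 83.3 and 64.2 to 46.1 and 40.5 CPM (log2 fold change -0.77, SE 0.25, adjusted p = 0.0467). In SoF, CCNE2 rose from 30.2 and 29.2 to 46.4 and 54.3 CPM (log2 fold change 0.76, SE 0.23, adjusted p = 0.0256), and E2F8 fell from 49.02 and 47.2 to 31.8 and 30.002 CPM (log2 fold change -0.64, SE 0.17, adjusted p = 0.0095). In Ctrl, CCNE1 rose from 72.8 and 49.9 to 103 and 95.7 CPM (log2 fold change 0.69, SE 0.20, adjusted p = 0.0231), and POLD1 from 27.1 and 17.9 to 33.9 and 39.3 CPM (log2 fold change 0.69, SE 0.21, adjusted p = 0.0315). These counts moved by more than 1.5 times with single libraries. In wt 3 calls became 1 when replicate 1 at 0 h was dropped, and 0 when replicate 2 of 0 h or of 3 h was. In SoF 4 calls became 1 on dropping replicate 2 at 0 h, 2 on dropping replicate 1 at 3 h, and 0 on dropping replicate 2 at 3 h. In Ctrl 3 calls became 7 on dropping replicate 1 at 0 h, and 0 on dropping its partner or either 3 h library.

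At 2 h CCND1 was the 1 gene called in wt, where 4.6% of all genes were. SoF had CCND1 higher and E2F8 lower (5.68% of all genes), and Ctrl had CCND1 higher and E2F7 and RFC4 lower (7.95%). E2F7 went from 239.7 and 219 to 133 and 132 CPM in Ctrl (log2 fold change -0.79, SE 0.17, adjusted p = 0.00581), from 204 and 186 to 137 and 133 in SoF (log2 fold change -0.53, SE 0.17, adjusted p = 0.0697) and from 173 and 196 to 148 and 162 in wt (log2 fold change -0.25, SE 0.17, adjusted p = 0.45). The 1 call in wt became 0 on dropping either wt library at 0 h or replicate 2 at 2 h, 3 on dropping wt replicate 1 at 2 h, and 2 on dropping Ctrl replicate 1 at 0 h. The 2 calls in SoF became 0 on dropping SoF replicate 2 of 0 h or replicate 1 of 2 h, and 1 on dropping any other SoF library or either Ctrl library of 2 h. The 3 calls in Ctrl became 5 on dropping Ctrl replicate 1 of 0 h, 1 on dropping its partner, and 0 on dropping replicate 2 of 2 h.

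Whether the 3 h response differed between lines was tested by an interaction contrast. None of the 45 genes was called for SoF against wt, Ctrl against wt or SoF against Ctrl by edgeR's quasi-likelihood test or by DESeq2, and over all genes 0%, 0% and 0.0127% were called. At an unadjusted p under 0.05 there were 0, 1 and 0 genes. The 1 gene was POLD1, whose response in Ctrl exceeded that in wt by 0.82 (SE 0.29) on the log2 scale (unadjusted p = 0.0105, adjusted p = 0.982 in edgeR's test). In wt POLD1 stood at 46.5 and 31.5 CPM at 0 h and 33.5 and 37.7 at 3 h. POLD1 had the smallest p in the other contrasts too, at -0.44 (SE 0.30) for SoF against Ctrl and 0.38 (SE 0.29) for SoF against wt. With libraries left out these 2 values ran from -0.79 to -0.18 and from 0.0925 to 0.62. The next smallest p was that of POLE for Ctrl against wt and for SoF against Ctrl (log2 differences 0.39, SE 0.23 and -0.28, SE 0.23), and that of CDT1 for SoF against wt (log2 difference 0.40, SE 0.34). Single ethanol libraries moved the differences of POLE and POLD1 between Ctrl and wt, and that of CDT1, by more than 1.5 times. That of POLE between Ctrl and wt was 0.014 on dropping wt replicate 1 of 0 h and 0.68 on dropping its partner, and that of CDT1 was 0.027 on dropping wt replicate 1 of 0 h and 0.75 on dropping SoF replicate 1 of 0 h. The POLD1 difference between Ctrl and wt was 0.52 on dropping wt replicate 1 of 0 h and 1.17 on dropping Ctrl replicate 1 of 0 h. Over the 3 lines, which share no library, 9 genes were higher and 20 lower at 3 h in each line, beside 31.4% and 34.3% of all genes.

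The last question was how the lines differed with treatment time ignored, 8 libraries each. Each comparison shares 1 line with each of the others. SoF had 8 of the 45 genes lower than wt and 0 higher (17.8%). Of all 21122 genes tested, 8.02% were called, 4.57% as higher and 3.45% as lower in SoF. FEN1 ran from 137 to 176 CPM (median 147) in wt and from 100.4 to 141 CPM (median 111) in SoF, and PCNA from 126 to 217 CPM (median 160.2) and from 103 to 140.3 CPM (median 120.5). Both pairs of ranges overlapped, and the log2 differences were -0.38 (SE 0.076, adjusted p = 0.00307) and -0.45 (SE 0.11, adjusted p = 0.0112). CDT1, CHAF1B, E2F1, MCM2, POLD1 and PRIM1 were the other 6, with log2 differences from -0.62 for CDT1 to -0.24 for PRIM1. The count of 8 was 2 without wt replicate 1 at 0 h or 2 h, 4 without either wt library at 3 h, and 5 without wt replicate 1 at 1 h. It was 3 on dropping SoF replicate 2 of 0 h or 2 h, or either SoF library of 1 h. With time as a term in the fit it was 14, of which 13 were lower, and without a filter on low counts it was 3. The ethanol libraries that were high in these genes, and wt replicate 1 at 2 h, enter these means, and their part in the differences was not tested beyond these counts.

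Ctrl had 2 genes lower than wt and 0 higher (4.77% of all genes were called, 2.11% as higher and 2.66% as lower). CDC25A ran from 102 to 157 CPM (median 132) in wt and from 68.2 to 106 CPM (median 95.9) in Ctrl (log2 fold change -0.49, SE 0.11, adjusted p = 0.0126), and PRIM1, a primase subunit that shares 10.9% of its exon bases with another gene of its strand, was at -0.27 (SE 0.076, adjusted p = 0.0385). The count was 4 without wt replicate 2 at 1 h, and 1 without any of 9 others: replicate 1 of wt at 0, 1, 2 or 3 h, Ctrl replicate 2 at 0 h, or a Ctrl library at 1 or 2 h. With time as a term in the fit 7 genes were called, all lower in Ctrl, and without a filter on low counts 1 was, the call of PRIM1 being lost. Between SoF and Ctrl 2 genes were called (3.61% of all genes, 2.16% as higher and 1.45% as lower in SoF). MCM7 was higher in SoF, from 251 to 341 CPM (median 287) against from 192 to 257 CPM (median 236) in Ctrl (log2 fold change 0.36, SE 0.10, adjusted p = 0.0324). CHAF1B, the middle subunit of CAF-1, ran from 14.5 to 17.7 CPM (median 15.6) in SoF and from 18.8 to 24.8 CPM (median 20.6) in Ctrl (log2 fold change -0.41, SE 0.089, adjusted p = 0.00623). All 8 SoF libraries lay below all 8 Ctrl libraries for CHAF1B, as in 0.461% of all genes, and its value stayed between -0.44 and -0.38 with each library left out. The call of MCM7 was lost, leaving 1, without SoF replicate 1 at 0 h or either SoF library at 2 h, or Ctrl replicate 2 at 0 h or replicate 1 at 1 h or 3 h. It was also lost without a filter on low counts. The count of 2 was 9 with a time term (3 higher and 6 lower in SoF) and 4 in DESeq2 (1 higher and 3 lower).

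**Figure D5:**
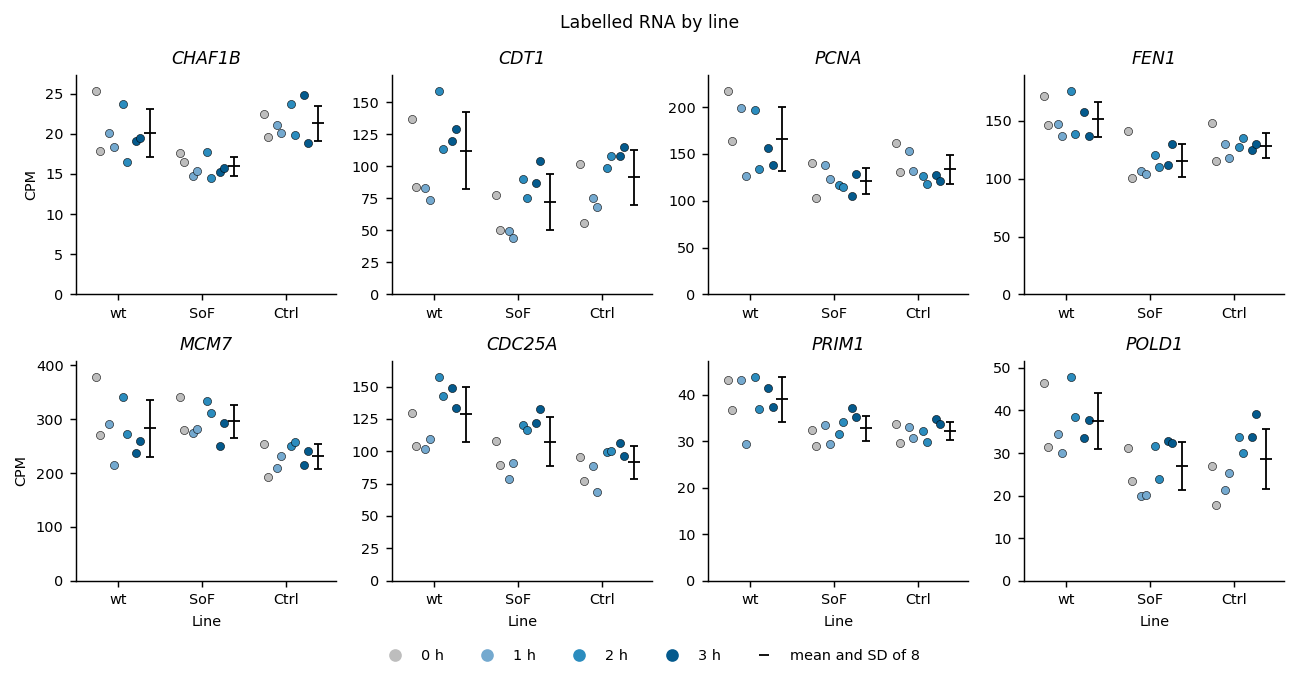
Labelled RNA (CPM, linear axes from 0) of 8 genes in each library, by line, with time from 0 to 3 h as colour, and the mean and SD of the 8 libraries of a line beside them. For CHAF1B the 8 SoF libraries lie below the 8 Ctrl libraries, while for the other 7 genes the ranges of each pair of lines overlap.

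Other genes of the same pathways were counted from lists made by name. Of 14 E2F and RB regulators outside the 45, 5 rose and 4 fell at 3 h in the mean of 3 lines (64.3%, beside 40.3% of all genes, 20.9% higher and 19.3% lower). TFDP1, a DP partner of the E2Fs, ran from 56.5 to 73.4 CPM (median 61.2) at 0 h and from 83.003 to 104 CPM (median 86.5) at 3 h (log2 fold change 0.50, SE 0.077, adjusted p = 2.05e-05). TFDP2, another DP partner, moved the other way in its median. It ran from 25.4 to 44.8 CPM (median 31.5) at 0 h and from 19.2 to 35.6 CPM (median 22.2) at 3 h, with overlap. RBL1 (p107), a pocket protein, ran from 78.9 to 99.5 CPM (median 84.7) and from 62.6 to 71.6 CPM (median 65.6) (log2 fold change -0.38, SE 0.092, adjusted p = 0.00246). LIN37 of the DREAM complex was at 0.61 (SE 0.14, adjusted p = 0.00121), with 26.7% of its exon bases shared with another gene of its strand and 41.8% opposite a lncRNA. Of 11 G1 kinases and CDK inhibitors 4 rose and 1 fell (45.5%). CCND3, cyclin D3, ran from 13.7 to 32.7 CPM (median 21.4) at 0 h, from 28.2 to 44.8 CPM (median 31.4) at 1 h, from 74.1 to 98.6 CPM (median 81.7) at 2 h and from 103 to 139 CPM (median 115) at 3 h, and its log2 fold change of 2.48 (SE 0.14, adjusted p = 1.20e-11) exceeded that of each of the 45 genes. CDK6, a kinase of the D cyclins, was at 0.68 (SE 0.10, adjusted p = 9.07e-06), and CDKN2D (p19), an inhibitor of CDK4 and CDK6, at 0.84 (SE 0.16, adjusted p = 0.000227). Of 42 other replication genes 4 rose and 6 fell (23.8%), with RECQL4, a helicase of replication initiation, at 1.03 (SE 0.15, adjusted p = 9.43e-06), NASP, a histone chaperone, at -0.59 (SE 0.089, adjusted p = 1.63e-05), and MCM8 at -0.51 (SE 0.10, adjusted p = 0.000398), of whose exon bases 33.3% are shared with another gene of its strand.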

How the data were processed

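The 24 libraries of 4sU-seq, 2 for each of 3 lines at 4 times, hold RNA labelled over 1 h. The authors tagged reads with UMI-tools 1.1.2, trimmed them with Trim Galore 0.6.6, aligned them to hg38 with STAR 2.7.3a, removed duplicates by molecular identifier and counted exons of GENCODE release 39 with featureCounts. The deposited table holds these raw counts per gene, with no normalization. A strand setting for the counting is given by the title of the table alone.

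Groups came from the sample titles. In R 4.3.3, counts were scaled by TMM and tested with the quasi-likelihood test of edgeR 4.0.16, with Benjamini-Hochberg adjustment over all genes that passed filterByExpr (minimum count 10, minimum total 15). The threshold for a call was an adjusted p of 0.05. Times and differences between lines were tested in 1 model of 12 groups (23651 genes, biological coefficient of variation 14.2%), and lines with time ignored in a model of 3 constructs, after the design of the study (21122 genes, 24.0%). The SE was the log2 fold change divided by the root of F. CPM used TMM library sizes, and RPKM divided them by the merged length of all annotated exons of a gene. Symbols came from GENCODE release 44 for 61369 of 61533 genes (99.7%). Fits were tested on simulated data.

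Alternatives were DESeq2 1.42.0, its size factors, no filter on low counts, the replicate number as a block, a time term for the comparisons of lines, and each library left out in turn. A block in each line and leaving out the 0 h libraries of 1 replicate number were added after seeing the data. The 45 genes and the other lists were chosen with earlier results of these data known. Genes named with values were MCM5, CCNE2 and E2F1, the 8 called genes of smallest p in each direction at 3 h for the mean of 3 lines, 2 in each direction per line, 2 per comparison of lines and 3 per other list. Further genes were named after their values were seen.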

Additional observations from a re-analysis of the deposited data

Results flagged for a closer look

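GINS1, a subunit of the GINS complex, had values on opposite sides of 0 in SoF and Ctrl at 3 h, and neither response was called. Both SoF libraries at 3 h (46.7 and 49.2 CPM) lay above both at 0 h (43.5 and 45.6), and both Ctrl libraries at 3 h (49.6 and 49.98 CPM) lay below both at 0 h (50.6 and 53.7). SoF stood at a log2 fold change of 0.11 (SE 0.12), Ctrl at -0.067 (SE 0.12), a difference of 0.17 (SE 0.17, adjusted p = 1.00) in edgeR's interaction test, which was not passed.

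POLE, the catalytic subunit of polymerase epsilon, had values on opposite sides of 0 in the same 2 lines, the other way round, and neither response was called. Its 2 SoF libraries went from 136 and 126 CPM at 0 h to 124 and 117 at 3 h, and its 2 Ctrl libraries from 125 and 113 to 137 and 129.8. The uncounted share of all genes limits POLE in the same way. SoF stood at -0.12 (SE 0.16) on the log2 scale, Ctrl at 0.16 (SE 0.17). Their difference of -0.28 (SE 0.23, adjusted p = 1.00) did not pass edgeR's interaction test.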

How the results depend on the processing

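Most calls rested on 2 libraries per group, and the ethanol pairs differed in these genes, so counts against 0 h depended on the libraries used. The replicate numbers were not treated as pairing the samples, since over 66 pairs of groups the correlation of same-numbered deviations ran from -0.22 to 0.57, with 21 over 0.1. The 3 pairs of 0 h groups were among these, at 0.40 (wt and SoF), 0.39 (wt and Ctrl) and 0.57 (SoF and Ctrl). The highest of the others were 0.43 (SoF at 0 and 2 h), 0.40 (SoF at 2 h and Ctrl at 0 h) and 0.37 (SoF at 0 and 1 h). With the replicate number as a block, the count of genes called was 11 in place of 7 at 2 h for the mean of 3 lines, 5 in place of 3 at 3 h in wt and 5 in place of 3 at 3 h in Ctrl. With a replicate block in each line these were 12, 5 and 8, and wt at 2 h had 2 in place of 1. No other count moved by over 1.5 times with a block.

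DESeq2 called 2 genes in wt and 4 in SoF at 2 h, 5 in Ctrl at 3 h, and 4 between SoF and Ctrl with time ignored. Without a filter on low counts 1 gene was called at 1 h for the mean of 3 lines, and 3, 1 and 1 for SoF against wt, Ctrl against wt and SoF against Ctrl. A time term gave 14, 7 and 9. The cause was not tested in any of these. With each library left out in turn, and with all 0 h libraries of 1 replicate number left out, counts at 1 h were 0 to 2 in wt, 0 to 1 in SoF, 0 to 0 in Ctrl and 0 to 16 for the mean of 3 lines. At 2 h they were 0 to 4, 0 to 3, 0 to 7 and 4 to 18, and at 3 h 0 to 4, 0 to 8, 0 to 7 and 12 to 18. They were 14 to 21 for 3 h against 1 h, 2 to 9 for SoF against wt, 1 to 4 for Ctrl against wt, 1 to 3 for SoF against Ctrl, and 0 to 0 for each difference in response. E2F1 at 3 h was 0.35 and called without the 3 replicate 1 libraries at 0 h, and turned to -0.12 without the 3 replicate 2 libraries at 0 h. Of the other values of named genes under the alternatives that kept all libraries, 182 kept their direction and side of the threshold, 5 passed it (all MCM5) and 3 lost it without the filter (RFC4 in SoF, PRIM1 for Ctrl against wt, MCM7 for SoF against Ctrl).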

Other observations

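Genes of mitosis, which act after S phase, were counted from a list of 30 made by name. At 3 h against 0 h for the mean of 3 lines, 3 rose and 13 fell, 53.3% of the list beside 40.3% of all genes called. ECT2, an exchange factor of cytokinesis, ran from 88.99 to 191 CPM (median 115) at 0 h and from 52.3 to 94.3 CPM (median 72.3) at 3 h, with a log2 fold change of -0.78 (SE 0.10, adjusted p = 1.69e-06) by edgeR. KIF23, a kinesin of the midzone, ran from 319.5 to 453 CPM (median 418) at 0 h and from 211 to 283 CPM (median 233) at 3 h, with -0.74 (SE 0.095, adjusted p = 2.07e-06). The fallers also included CDK1, CENPE, CENPF, TTK and BUB1B, of mitotic entry, the kinetochore and the spindle checkpoint. CDC20, an activator of the anaphase-promoting complex, rose with 0.83 (SE 0.13, adjusted p = 3.54e-05), from a median of 83.01 CPM to 148, as did PLK1 and KIF20A. The list was not tested as a set.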
